A study of Mus musculus with 8 samples.

Results

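The transporters that carry glucose and monocarboxylates (lactate, pyruvate and ketone bodies) across brain cell membranes were followed through 8 RNA-seq libraries of whole mouse brain. They were 7 genes taken by symbol from the 34299 genes of the count table: Slc2a1, Slc2a3, Slc2a8, Slc2a13, Slc16a1, Slc16a7 and Bsg. All 7 were found in the table. The study set Cav1 knockout (KO) mice, which lack the caveolar coat protein caveolin 1, against wild-type (WT) mice. At gestation day 15, 3 fetal WT brains and 3 fetal Cav1 KO brains were sequenced, and 2 Cav1 KO brains were sequenced at week 70. The fetal libraries were biological replicates per the labels' protocols, which do not say so of the week 70 libraries, where the spread may be technical. The knockout is not limited to one cell type by any label, and strain and sex are not given there. Wild-type brains at week 70 were not analysed here, so that age was compared within the KO only.

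Glucose enters the brain through facilitative carriers of the Slc2a (GLUT) family. Slc2a1 encodes GLUT1, the carrier of the blood-brain barrier endothelium and of astrocytes, and Slc2a3 encodes GLUT3, the main neuronal carrier. Slc2a8 encodes GLUT8, which resides mostly on internal membranes, and Slc2a13 encodes a proton-coupled myo-inositol transporter of the same family. Lactate, pyruvate and ketone bodies move with protons through the Slc16a (MCT) family. Slc16a1 encodes MCT1, known from endothelium, glia and progenitors, and Slc16a7 encodes MCT2, the neuronal carrier with the higher affinity. Bsg encodes basigin, the immunoglobulin-family chaperone that brings MCT1 to the cell surface, whereas MCT2 relies mainly on embigin. In the fetal and suckling brain, ketone bodies and lactate supplement glucose as fuel.

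The targeted gene followed the labels, with 367, 218 and 329 Cav1 counts in the WT fetal libraries, 0, 3 and 1 in the KO fetal libraries, and 1 and 5 at week 70. Total counts ran from 19414747 to 20833397 in WT fetuses, from 14110031 to 15245283 in KO fetuses, and were 20203233 and 18924304 at week 70. Depth thus separated the fetal genotypes, the labels name no batch, and a batch and the genotype cannot be told apart. WT replicate 1 stood apart in the markers of fibroblasts and meninges, whose 10 genes summed to 4581 CPM (counts scaled to the library size) in it, against 352 CPM in the lowest WT library. At week 70 the choroid plexus markers summed to 73.6 CPM in replicate 1 and 2423 CPM in replicate 2. Markers of neurons, astrocytes and endothelium were detected in every group, as whole brain should have them. Each of the 7 genes had at least 162 counts in every library and passed the filter on low counts in all 3 comparisons.

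On GRCm38 with the GENCODE annotation, all 7 are protein-coding genes. Slc2a1 (ENSMUSG00000028645) lies at chr4:119108711-119137983 on the plus strand, Slc2a3 (ENSMUSG00000003153) at chr6:122727809-122801640 on the minus strand, and Slc2a8 (ENSMUSG00000026791) at chr2:32972990-32982083 on the minus strand. Slc2a13 (ENSMUSG00000036298) spans chr15:91267696-91573261 on the minus strand and Slc16a1 (ENSMUSG00000032902) chr3:104638668-104658462 on the plus strand. Slc16a7 (ENSMUSG00000020102) and Bsg (ENSMUSG00000023175) share chromosome 10, at chr10:125219270-125389465 on the minus strand and chr10:79704491-79711969 on the plus strand. Antisense Gm12868 shares 105 exon bases with Slc2a1 and held at most 14 counts in a library. Gm47862, on the opposite strand of Slc16a7, shares 179 exon bases and held at most 5. The pseudogene Gm4482 lies inside an intron of Slc2a3 and shares no exon base with it; it held 191, 153 and 188 counts in WT, 127, 122 and 122 in KO fetuses, and 23 and 14 at week 70. Whether the counting used strand is not given in the sources used here.

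RefSeq promoter entries on GRCm38.p6 were matched for 4 of the 7 genes, Slc2a1, Slc2a8, Slc2a13 and Slc16a1. Every matched entry is shown, whatever the calls of its gene. Slc2a1, Slc2a13 and Slc16a1 were, like Slc2a3, called lower in KO than in WT fetuses and higher at week 70 than in either fetal group. Slc2a3 had no matched entry. Slc2a8 did not pass the test between the fetal genotypes. Each sequence holds the 250 bases before the RefSeq start, in the direction of the gene; the GENCODE start of Slc2a1 lies within its window. Capitals mark the hypoxia-response core ACGTG, the GC box GGGCGG (printed as CCGCCC where it lies on the other strand) and the E-box CACGTG, searched on both strands.
Slc2a1 promoter, chr4:119108495-119108744, + strand: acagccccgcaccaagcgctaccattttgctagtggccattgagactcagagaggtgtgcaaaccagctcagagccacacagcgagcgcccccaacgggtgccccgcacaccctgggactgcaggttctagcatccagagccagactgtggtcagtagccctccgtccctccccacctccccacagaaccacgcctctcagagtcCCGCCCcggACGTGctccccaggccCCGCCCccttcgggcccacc
Slc2a13 promoter, chr15:91573262-91573511, - strand: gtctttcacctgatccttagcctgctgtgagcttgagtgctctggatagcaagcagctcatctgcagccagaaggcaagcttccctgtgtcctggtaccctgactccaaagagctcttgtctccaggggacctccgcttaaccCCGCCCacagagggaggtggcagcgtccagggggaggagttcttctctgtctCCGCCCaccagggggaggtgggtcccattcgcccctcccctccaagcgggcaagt
Slc16a1 promoter, chr3:104638414-104638663, + strand: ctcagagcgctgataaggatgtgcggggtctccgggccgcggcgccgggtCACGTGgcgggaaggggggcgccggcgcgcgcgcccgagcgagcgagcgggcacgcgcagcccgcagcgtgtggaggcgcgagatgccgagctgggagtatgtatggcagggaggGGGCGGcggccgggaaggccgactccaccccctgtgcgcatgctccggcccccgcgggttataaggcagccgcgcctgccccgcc
Slc2a8 promoter, chr2:32982084-32982333, - strand: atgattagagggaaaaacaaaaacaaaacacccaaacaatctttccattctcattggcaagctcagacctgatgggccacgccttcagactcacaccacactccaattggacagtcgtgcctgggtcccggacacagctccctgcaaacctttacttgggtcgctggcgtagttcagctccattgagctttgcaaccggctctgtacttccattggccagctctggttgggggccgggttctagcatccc
The Slc2a1 window held 1 ACGTG and 2 GC boxes, with ACGTG between 36 and 32 bases before the RefSeq start. That ACGTG spans the GENCODE start of Slc2a1. The GC box between 20 and 15 bases before the RefSeq start lies after the GENCODE start. The Slc16a1 window held 1 GC box and 1 CACGTG, which contains ACGTG on each strand. Slc2a13 had 2 GC boxes, and none of the 3 motifs was found in the Slc2a8 window. Among 32851 promoter windows of the same length, 16.57% held ACGTG, 32.74% GGGCGG and 6.02% CACGTG. GC content was 66.4% for Slc2a1, 61.2% for Slc2a13, 76.4% for Slc16a1 and 52.8% for Slc2a8, against a median of 52.4% over all windows. The Slc16a1 window held 37 CpG dinucleotides and that of Slc2a1 13, against a median of 6. These matches describe the sequence and were not tested for use.

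The first comparison asked how the transporters differed between Cav1 KO and WT fetal brain. Slc2a1 was 3.99-fold lower in KO, Slc2a13, Slc16a1 and Slc2a3 were lower by smaller amounts, and Slc16a7 was 1.56-fold higher. Slc2a8 and Bsg did not pass the test. Levels below are CPM after TMM normalisation over the 8 libraries, while log2 fold changes come from edgeR fits of the groups compared, so that ratios of mean CPM differ slightly from the fitted folds. Calls rest on edgeR's quasi-likelihood test with Benjamini-Hochberg adjustment over all genes tested, at 0.05. In whole brain, fewer cells of a type and less RNA per cell cannot be told apart.

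Slc2a1 stood at 69.2, 65.2 and 71.7 CPM in the WT fetal libraries and at 18.7, 16.4 and 15.2 CPM in the KO fetal libraries. No KO library came near a WT library. The means were 68.7 ± 3.31 and 16.8 ± 1.80 CPM (SD, n = 3 each), with a log2 fold change of -2.00 (SE 0.0826, adjusted p 2.75e-08 in edgeR's quasi-likelihood test). The neuronal carrier Slc2a3 held 39.1, 39.2 and 47.1 CPM in WT against 31.8, 32.8 and 29.2 CPM in KO. The groups did not overlap, but the difference was far smaller than that of Slc2a1, with a log2 fold change of -0.38 (SE 0.0905, edgeR adjusted p 0.00418).

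Slc2a13, the myo-inositol carrier, held 19.0, 17.0 and 19.5 CPM in WT and 9.81, 9.28 and 9.96 CPM in KO fetuses. Its KO libraries lay close together, all under the WT libraries, and the log2 fold change was -0.89 (SE 0.103, edgeR adjusted p 2.7e-05). The intracellular carrier Slc2a8 held 15.6, 14.5 and 15.3 CPM in WT and 13.7, 12.9 and 10.5 CPM in KO. The groups were apart by a small margin, and the log2 fold change of -0.25 (SE 0.116) was not called (edgeR adjusted p 0.0815).

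The 2 monocarboxylate transporters went opposite ways. Slc16a1 held 22.4, 19.0 and 18.7 CPM in WT and 13.7, 12.9 and 12.3 CPM in KO fetuses, a log2 difference of -0.59 (SE 0.103, edgeR adjusted p 0.000572). Slc16a7 held 19.3, 18.9 and 21.8 CPM in WT and 28.6, 29.1 and 33.0 CPM in KO, a log2 fold change of 0.64 (SE 0.0953, edgeR adjusted p 0.000179). The groups did not overlap for either gene. The MCT1 chaperone Bsg overlapped between the genotypes, with 217, 199 and 222 CPM in WT and 218, 202 and 174 CPM in KO. Its log2 fold change was -0.06 (SE 0.0806, edgeR adjusted p 0.521).

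**Figure D1:**
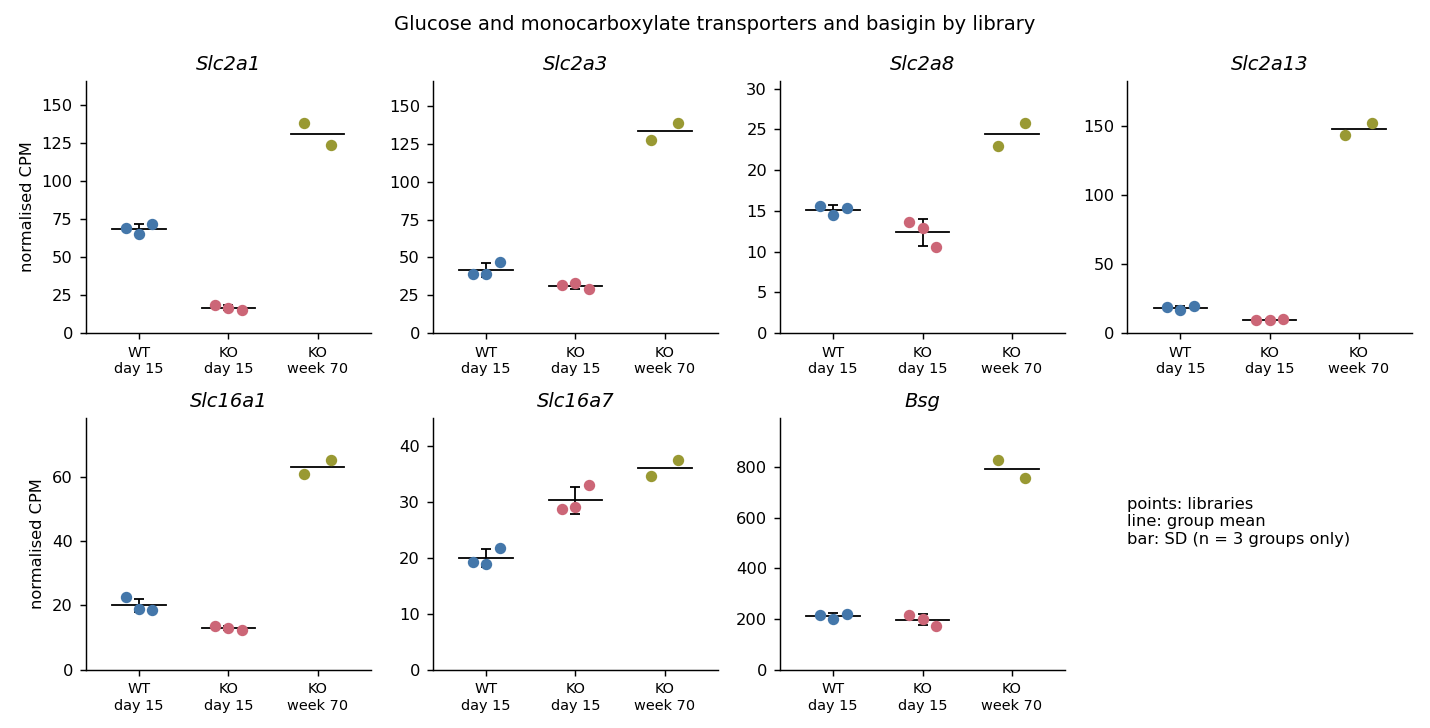
Normalised CPM of the 7 genes (vertical axes, each starting at 0) in the 3 WT and 3 KO day 15 libraries and the 2 KO week 70 libraries; points are libraries, lines are group means and bars are SD for the groups of 3. Slc2a1 falls from 68.7 CPM in WT to 16.8 CPM in KO fetuses and stands at 138 and 124 CPM at week 70, while Bsg overlaps between the fetal groups.

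In all, 5 of the 7 genes passed the test between the fetal genotypes, 4 lower and 1 higher in KO. Over all 19147 genes tested 62.6% were called, 32.5% lower and 30.1% higher. The share of 5 in 7 is near that background. By size, 1.45% of the genes tested had a lower log2 fold change than Slc2a1, 13.4% than Slc2a13, 22.5% than Slc16a1 and 30.4% than Slc2a3, and 20.1% had a higher one than Slc16a7. Upper-quartile scaling moved the share of all calls that were higher from 48.1% to 60.8%, and their typical change, the median over all genes tested, from 0.03 to 0.20 on the log2 scale. Levels did not overlap between the groups for 6 of the 7 genes, against 68.4% of all genes. The median log2 fold change of the 7 was -0.38, against 0.03 over all genes tested.

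A fit that also removes each library's trends on transcript length and GC content left Slc2a1, Slc2a13 and Slc16a1 lower and Slc16a7 higher in KO. Its log2 fold changes were -1.64 for Slc2a1 (edgeR adjusted p 1.02e-07), -0.74 for Slc2a13 (0.000129), -0.90 for Slc16a1 (4.1e-05) and 0.28 for Slc16a7 (0.018). The call of Slc2a3 was lost, at -0.11 (edgeR adjusted p 0.33), and with upper-quartile scaling it was -0.20 (adjusted p 0.068). Slc2a8, whose transcript has a GC content of 60.77%, turned to 0.42 in that fit and was called higher (edgeR adjusted p 0.00321). Bsg turned to 0.18 and was also called higher (edgeR adjusted p 0.0297). The directions of Slc2a8 and Bsg between the fetal genotypes thus depend on this correction. With it 3 of the 7 genes were called higher and 3 lower, and their median was -0.11, against 0.02 over all genes.

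The second comparison asked how the transporters differed between fetal and week 70 brain in the KO. All but Slc16a7 were higher at week 70, with Slc2a13 14.2-fold, Slc2a1 7.29-fold, Slc16a1 4.53-fold, Slc2a3 3.98-fold and Bsg 3.74-fold higher. Slc2a8 was 1.84-fold higher. Birth, maturation and ageing all lie between these groups and cannot be told apart. The labels name no batch here either, so a batch and the age cannot be told apart.

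Slc2a13 stood at 143 and 152 CPM in the week 70 libraries, against 9.81, 9.28 and 9.96 CPM in the KO fetuses. Both adult values stood far above the fetal ones, and the log2 fold change was 3.83 (SE 0.0926, edgeR adjusted p 1.49e-10). Slc2a1 reached 138 and 124 CPM, a log2 fold change of 2.87 (SE 0.105, edgeR adjusted p 1.97e-09). Slc2a3 reached 128 and 139 CPM, which is a log2 fold change of 1.99 (SE 0.0896, edgeR adjusted p 8.6e-09). No week 70 library of the 3 genes came near a fetal KO library.

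Slc16a1 reached 60.9 and 65.2 CPM at week 70, a log2 fold change of 2.18 (SE 0.101, edgeR adjusted p 1.06e-08). Bsg reached 829 and 758 CPM, which corresponds to a log2 fold change of 1.90 (SE 0.106, edgeR adjusted p 4.32e-08). Slc16a7 held 34.7 and 37.5 CPM, just above the KO fetal libraries, and its log2 fold change of 0.15 (SE 0.109) was not called (edgeR adjusted p 0.213). Slc2a8 held 23.0 and 25.8 CPM, which is 0.88 higher on the log2 scale (SE 0.146, edgeR adjusted p 0.000249).

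Between these ages 6 of the 7 genes were called, all higher, where 82% of 20000 genes tested were called, 37.6% higher and 44.4% lower. Levels were apart for 7 of 7, against 87.9% of all genes. A higher log2 fold change was found in 3.91% of genes for Slc2a13, 7.58% for Slc2a1, 12.1% for Slc16a1, 13.8% for Slc2a3 and 14.8% for Bsg. The 7 genes had a median log2 fold change of 1.99, against -0.19 over all genes, or -0.44 with upper-quartile scaling. After the length and GC correction, Slc2a13 (4.02), Slc2a1 (2.37), Slc16a1 (2.83), Slc2a3 (1.91) and Bsg (1.67) stayed higher on the log2 scale. Slc16a7, the longest and most AT-rich transcript of the 7 at 37.66% GC, changed to 1.48 and was called higher (edgeR adjusted p 1.63e-07). Slc2a8 changed to -0.15 and lost its call (edgeR adjusted p 0.28). The sign of Slc16a7 also turned with upper-quartile scaling, to -0.10, and it was called higher at 0.25 when all 8 libraries were fitted together (edgeR adjusted p 0.0434).

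**Figure D2:**
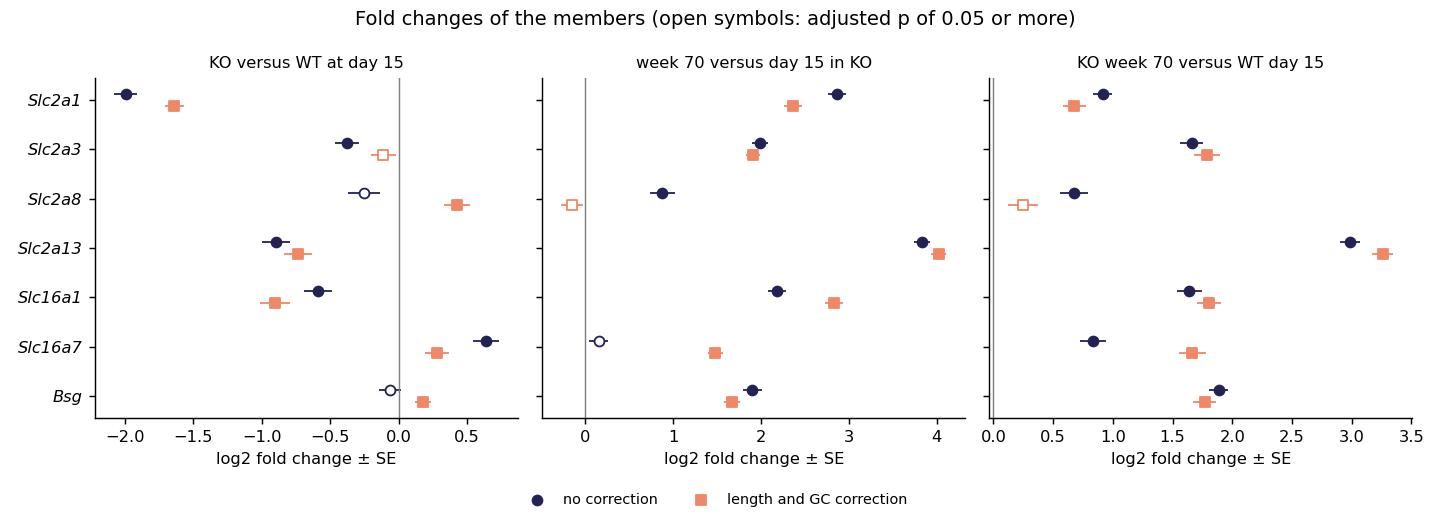
Log2 fold change (horizontal axis, with its standard error) of each gene in the 3 comparisons; circles are the fit without and squares the fit with the length and GC correction, and open symbols did not pass the adjusted p of 0.05. Slc2a1 and Slc2a13 keep their side of 0 in each panel, whereas Slc2a8 changes from -0.25 to 0.42 between the fetal genotypes and from 0.88 to -0.15 between the ages.

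The third comparison set the week 70 KO brains beside the WT fetuses, where age and genotype both differ and cannot be told apart. A batch cannot be told apart from them either. This comparison shares its libraries with the other comparisons and adds no independent evidence. All 7 genes were called higher at week 70, where 78.6% of 19465 genes were called, 36.7% higher and 41.9% lower. Levels were apart for 7 of 7, against 86.4% of all genes. Log2 fold changes were 2.98 for Slc2a13, 1.89 for Bsg, 1.66 for Slc2a3, 1.64 for Slc16a1, 0.92 for Slc2a1, 0.84 for Slc16a7 and 0.67 for Slc2a8. Slc2a1 had an edgeR adjusted p of 2.62e-05 here, and its WT fetal values of 65.2 to 71.7 CPM lay between those of KO fetuses and week 70. The same order, KO fetus below WT fetus below week 70, held without overlap for Slc2a1, Slc2a3, Slc2a8, Slc2a13 and Slc16a1. How many of all genes share this order was not counted. Slc2a8 was not called between the fetal genotypes and turned to 0.42 there with the length and GC correction. Slc2a3 lost its fetal call with that correction. For Slc16a7 the order was WT fetus, KO fetus, week 70. With the length and GC correction Slc2a8 lost its call at 0.25 (edgeR adjusted p 0.0955). Slc16a7 rose to 1.67.

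Per kilobase of merged exons, the scale on which different genes can be set side by side, Bsg stood far above the carriers in every group, at 117 CPM per kb in WT fetuses, 109 in KO fetuses and 438 at week 70. In WT fetuses Slc2a1 followed at 19.6 ± 0.944 CPM per kb (SD, n = 3), then Slc2a3 at 5.77, Slc2a8 at 4.72, Slc16a1 at 4.53, Slc2a13 at 2.21 and Slc16a7 at 1.69. Only Slc2a8 and Slc16a1, neighbours in that order, overlapped between libraries. In KO fetuses the step between Slc2a1 and the next carriers was gone. Slc2a1 stood at 4.78 ± 0.513 CPM per kb, Slc2a3 at 4.32 and Slc2a8 at 3.86, each overlapping the next. Slc16a1 at 2.93 and Slc16a7 at 2.56 CPM per kb overlapped too, and Slc2a13 was lowest at 1.16. At week 70 Slc2a1 was again first among the carriers at 37.4 CPM per kb. Slc2a3 at 18.4 and Slc2a13 at 17.7 CPM per kb overlapped, and Slc16a1 at 14.2, Slc2a8 at 7.60 and Slc16a7 at 3.05 followed apart from each other.

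Slc2a1 made up 61.2%, 60.9% and 60.0% of the summed CPM per kb of the 4 Slc2a genes in the WT fetuses, and 35.2%, 32.6% and 33.7% in the KO fetuses. At week 70 it made up 48.4% and 43.7%. Slc2a3 took 17.8 ± 1.19% in WT and 30.7 ± 1.50% in KO fetuses (SD, n = 3 each), and Slc2a8 14.6 ± 0.547% and 27.2 ± 1.44%. The share of Slc2a13 was 6.85 ± 0.202% in WT, 8.25 ± 0.888% in KO fetuses, and 21.1% and 22.6% at week 70. The shares of Slc2a1, Slc2a3 and Slc2a8 thus lay closer together in KO fetuses than in WT fetuses, and at week 70 Slc2a13 took a larger share than Slc2a8, at 8.81% and 9.95%. After the length and GC correction the Slc2a1 share was 61.8%, 33.4% and 41.7% in the 3 groups, in the same order.

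**Figure D3:**
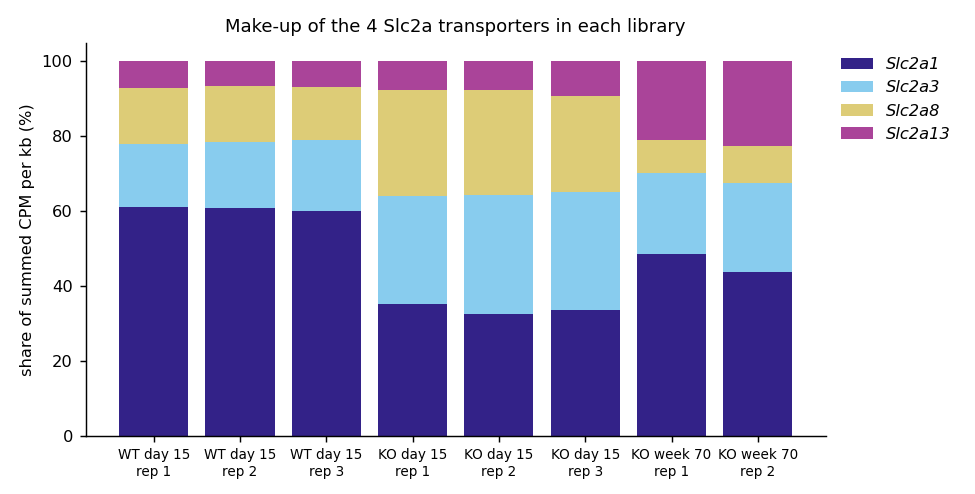
Share of the summed CPM per kb of the 4 Slc2a genes (vertical axis, percent) taken by each, in each of the 8 libraries. Slc2a1 takes 60.0% to 61.2% in WT fetuses, 32.6% to 35.2% in KO fetuses and 43.7% and 48.4% at week 70.

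Ratios within a library need no scaling between libraries. Slc2a1 exceeded Slc2a3 per kb 3.41 ± 0.258 times in WT fetuses and 1.11 ± 0.0971 times in KO fetuses (SD, n = 3 each), and 2.23 and 1.84 times at week 70. The ratio of Slc16a1 to Slc16a7 per kb was 2.70 ± 0.408 in WT and 1.15 ± 0.142 in KO fetuses, and 4.70 and 4.65 at week 70. The KO fetuses had the lowest values of both ratios, with no overlap between any groups. Two-sided exact permutation tests gave p = 0.1 between the fetal genotypes and 0.2 between the ages for both, the smallest p that these numbers of libraries allow. Adjusted over the 33 comparisons of ratios and shares made, both became 0.228. With the length and GC correction the order of the means was kept for both, at 3.55, 1.21 and 1.69 for the first ratio and 3.02, 1.31 and 3.36 for the second in WT fetuses, KO fetuses and week 70. For the second ratio WT fetuses (2.59 to 3.38) and week 70 (3.34 to 3.37) then overlapped.

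Basigin stood 18.9 ± 1.15 times above the summed Slc16a1 and Slc16a7 per kb in WT fetuses and 19.9 ± 2.39 times in KO fetuses (SD, n = 3 each). These overlapped (exact permutation p = 0.6). At week 70 the ratio was 27.4 and 23.4. The order of the groups changed with the length and GC correction, to 17.6, 27.9 and 17.6, so that no direction is given for this ratio.

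**Figure D4:**
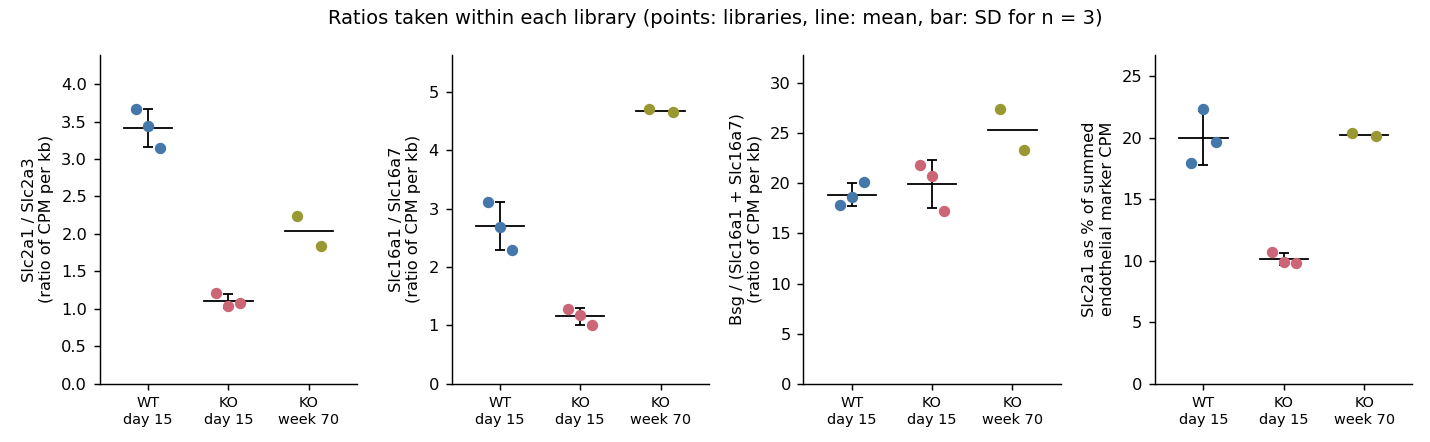
Ratios taken within each library (vertical axes, starting at 0) for the 3 groups: Slc2a1 to Slc2a3, Slc16a1 to Slc16a7, and Bsg to the summed Slc16a genes, all per kb, and Slc2a1 as a percentage of the summed CPM of 16 endothelial markers; points are libraries, lines means and bars SD for groups of 3. KO fetuses are lowest in the first, second and last panel, and overlap WT fetuses in the third.

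Cell type markers differed between the groups as well. The 16 endothelial markers, among them Pecam1, Cdh5 and Cldn5, summed to between 292 and 386 CPM in WT fetuses, 155 and 175 CPM in KO fetuses, and 615 and 679 CPM at week 70. Between the fetal genotypes 11 of 16 were called lower, 3 higher (Slco1c1, Abcg2 and Egfl7) and 2 were not called. Over all genes 32.5% were called lower and 30.1% higher. Slc2a1 amounted to 20.0 ± 2.20% of that sum in WT and 10.1 ± 0.497% in KO fetuses (SD, n = 3 each), and to 20.4% and 20.1% at week 70. WT fetuses and week 70 overlapped, while KO fetuses were apart from both (exact permutation p = 0.1 and 0.2, the smallest possible). With the length and GC correction the shares were 20.5%, 11.4% and 15.7%, and WT fetuses (18.4% to 23.2%) no longer overlapped week 70 (15.7% and 15.8%).

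Slc16a1 amounted to 5.81 ± 0.685% of the endothelial sum in WT, 7.85 ± 0.0993% in KO fetuses (SD, n = 3 each) and 10.6% and 8.97% at week 70. The fetal order was reversed by the length and GC correction, at 6.56% and 6.09%. Astrocyte markers, relevant to Slc2a1 and Slc16a1 as well, summed to 603 to 683 CPM in WT fetuses, 285 to 305 in KO fetuses, and 8488 and 9237 at week 70. Between the fetal genotypes 6 of these 10 were called lower, 1 higher (Aqp4, 0.68) and 3 were not called. The 10 neural progenitor markers, relevant to Slc16a1, summed to 1778 to 1942 CPM in WT fetuses, 1421 to 1519 in KO fetuses, and 249 and 260 at week 70. Of these, 9 were called lower in KO than in WT fetuses, as Slc16a1 was, beside 32.5% of all genes. Fabp7 was called higher, at a mean of 281 CPM in WT and 785 CPM in KO fetuses, a large part of the KO sum. At week 70, 9 of the 10 were lower than in KO fetuses, beside 44.4% of all genes, where Slc16a1 was higher. Pericyte and smooth muscle markers summed to 261 to 338, 167 to 178, and 299 and 334 CPM. Of these 10, 8 were called lower in KO than in WT fetuses and 1 was not called. Rgs5 was called higher, at a mean of 70.6 CPM in WT and 105 CPM in KO fetuses, a large part of the KO sum. With the length and GC correction 8 were lower, 0 higher and 2 not called. Oligodendrocyte markers stood at 86.2 to 113 CPM in all fetuses and at 14098 and 14263 CPM at week 70. The part of these cell types in the differences of Slc2a1, Slc2a13 and Slc16a1 was not tested.

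The neuronal carriers were set against 10 neuronal markers, which summed to 4691 to 5250 CPM in WT fetuses, 3491 to 3636 CPM in KO fetuses, and 10065 and 10283 CPM at week 70. The sum was thus lower in KO than in WT fetuses, whereas Slc16a7 was higher. Of the 10 markers 7 were called lower, where 32.5% of all genes were called lower and 30.1% higher. Snap25 (0.47) and Stmn2 (0.57) were called higher, as Slc16a7 was. With the length and GC correction 4 markers were lower, 1 higher and 5 not called. Slc2a3 amounted to 0.829 ± 0.0704% of that sum in WT and 0.877 ± 0.0413% in KO fetuses (SD, n = 3 each), which overlapped (exact permutation p = 0.4), and to 1.24% and 1.38% at week 70. Slc16a7 amounted to 0.397 ± 0.0283% in WT and 0.850 ± 0.0841% in KO fetuses, and to 0.337% and 0.373% at week 70. Its KO fetal value was the highest also with the length and GC correction, at 0.586% against 0.411% and 0.505%. Erythroid markers summed to 1043 to 1324 CPM in WT fetuses, 3600 to 4425 CPM in KO fetuses, and 492 and 778 CPM at week 70, where Hba-x was at 0 counts in both libraries. Of 9 tested between the fetal genotypes, 6 were called higher, 2 lower and 1 was not called. The 2 called lower in KO were Hbb-y (-0.95) and Hba-x (-0.81), against the direction of the sum. The part of the erythroid markers in the Slc16a7 difference was not tested. WT replicate 1, with its high meningeal markers, decided no call of the 7 genes between the fetal genotypes: without it the fetal log2 fold change of Slc2a1 was -2.01 and that of Slc16a7 0.59.

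Other members of the carrier families were drawn from lists of the whole families. Of 8 further Slc2a genes 6 could be tested between the fetal genotypes, and 3 fell in KO, none rose and 3 did not pass. The 3 called in 6 are not above the background of 62.6% called in either direction. All 3 were lower, though, where 32.5% of all genes were called lower. The median log2 fold change of the 6 was -0.45, or -0.12 with the length and GC correction, where 2 were called lower. The call of Slc2a12, a further GLUT carrier, was lost with all 8 libraries in one fit (-0.81, adjusted p 0.0907). Slc2a10, an intracellular carrier, had the largest fall, at -1.85 (SE 0.353, edgeR adjusted p 0.000984), from 5.28, 2.00 and 3.32 CPM to 1.03, 1.00 and 0.811 CPM. Slc2a4, the insulin-regulated GLUT4, fell by 0.78 on the log2 scale (edgeR adjusted p 0.0028), a call that the length and GC correction ended (-0.39, adjusted p 0.0876). Of the sodium-coupled sugar and monocarboxylate transporters only Slc5a3, a myo-inositol carrier, was tested out of 10. It was lower in KO fetuses at -0.34 (edgeR adjusted p 0.00243), and was not called with upper-quartile scaling or with all 8 libraries in one fit.

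Of 12 further Slc16a genes 11 were tested between the fetal genotypes, and 6 fell, 1 rose and 4 did not pass, with a median of -0.58. The 7 called in 11 are near the background of 62.6% called in either direction. By direction 6 were lower and 1 higher, where 32.5% of all genes were called lower and 30.1% higher. Slc16a10, a carrier of aromatic amino acids, had the largest fall at -1.70 (SE 0.272, edgeR adjusted p 0.000298). Slc16a4 was the one that rose, at 0.67 (edgeR adjusted p 0.000609), a call that the length and GC correction ended (0.11, adjusted p 0.401). Slc16a3, the lactate exporter MCT4, had -0.95 (edgeR adjusted p 0.00521), and this call also ended with the correction (-0.24, adjusted p 0.401). Its WT replicate 1 held 7.06 CPM, against 4.19 and 4.07 CPM in the other WT libraries. Emb, the embigin chaperone of MCT2, was higher in KO fetuses at 19.3, 18.5 and 18.8 against 34.1, 29.2 and 23.3 CPM. That is a log2 fold change of 0.65 (SE 0.122, edgeR adjusted p 0.000916), the same direction as Slc16a7. Nptn, the other relative of basigin, stood at 0.03 and was not called (edgeR adjusted p 0.649), though it was called lower with the length and GC correction at -0.42 (adjusted p 0.000881) and higher with upper-quartile scaling at 0.21 (adjusted p 0.0151).

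With age, 4 of 7 further Slc2a genes rose, 2 fell and 1 did not pass, with a median of 1.34, beside a background of 82% called and 37.6% called higher. That median is the value of Slc2a12, which held 3.63 and 13.0 CPM in the 2 week 70 libraries and 2.72 to 3.42 CPM in KO fetuses. Without week 70 replicate 2, the library with the high choroid plexus markers, Slc2a12 was at 0.16 and not called (edgeR adjusted p 0.626). The fructose carrier Slc2a5 had the largest rise at 2.73 (edgeR adjusted p 5.92e-06). Slc2a2 had the largest fall at -2.14 (edgeR adjusted p 0.0203) on at most 12 counts, a call lost with the correction (-1.44, adjusted p 0.101), with DESeq2 (-2.25, adjusted p 0.0781), with all 8 libraries in one fit (-2.05, adjusted p 0.0938) and without week 70 replicate 1 (-1.54, adjusted p 0.146). GLUT4 transcripts (Slc2a4) had -0.81 (edgeR adjusted p 0.0303), not called with DESeq2 or without KO fetal replicate 2 or 3 or week 70 replicate 2, with values from -0.85 to -0.74. Of 12 further Slc16a genes 6 rose, 2 fell and 4 did not pass, with a median of 0.50. Among those that rose, Slc16a9 lost its call without week 70 replicate 2 (0.86, edgeR adjusted p 0.072) and Slc16a6 without week 70 replicate 1 (0.27, adjusted p 0.222) or KO fetal replicate 1 (0.40, 0.127) or 2 (0.49, 0.0882). Slc16a5 rose most, at 3.47 (edgeR adjusted p 0.000236), on 1, 2 and 5 fetal and 27 and 30 adult counts. Slc16a4 fell most, at -1.83 (edgeR adjusted p 4.35e-06). Slc16a3 had 0.80 (edgeR adjusted p 0.0125), which turned to -0.13 with the correction (adjusted p 0.641) and was 0.55 with upper-quartile scaling (adjusted p 0.0633). Slc5a3 fell by 1.24 on the log2 scale (edgeR adjusted p 0.000219), opposite to the other myo-inositol carrier Slc2a13. Both chaperones were called higher, Nptn at 2.97 (edgeR adjusted p 5.8e-10) and Emb at 0.43 (adjusted p 0.0322). The call of Emb was lost without KO fetal replicate 2 (0.44, adjusted p 0.0579) or 3 (0.30, 0.109), without week 70 replicate 2 (0.21, 0.261), with DESeq2 (0.39, 0.071) and with upper-quartile scaling (0.18, 0.317).

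**Figure D5:**
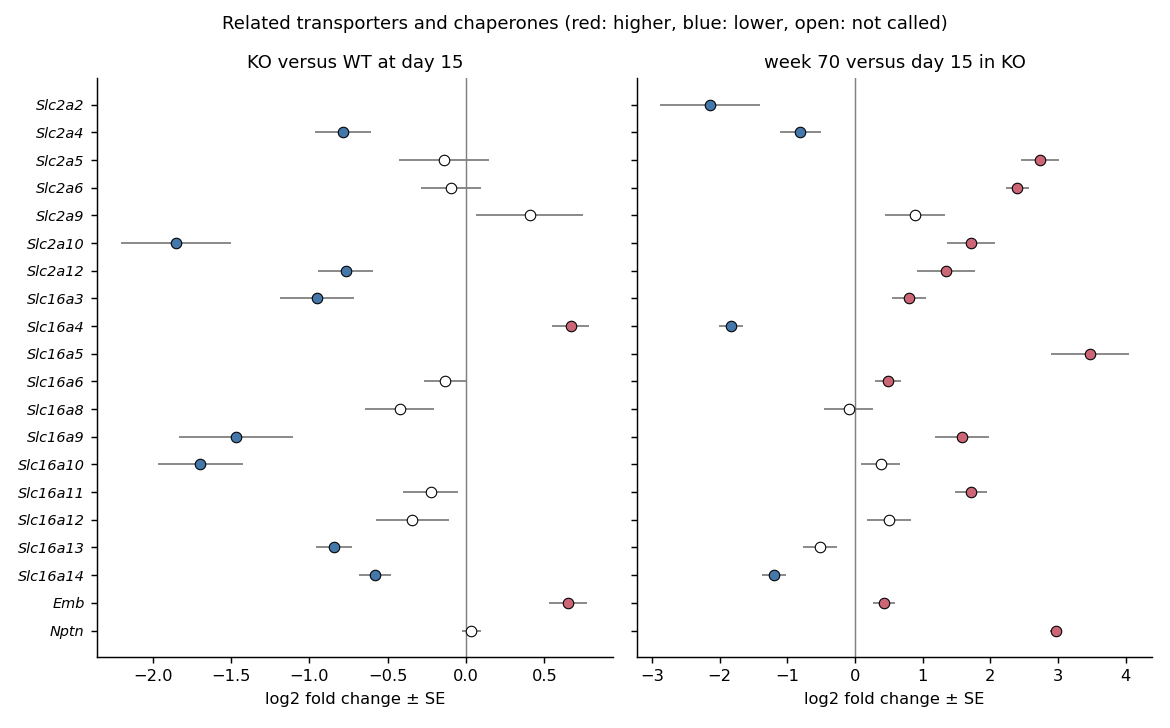
Log2 fold change (horizontal axis, with its standard error) of further Slc2a and Slc16a genes and of Emb and Nptn, between the fetal genotypes (left) and between the ages in KO (right); red is called higher, blue called lower, and open symbols are not called. Slc16a4 and Emb are the ones called higher in KO fetuses, at 0.67 and 0.65, and Slc16a5 has the largest rise with age, at 3.47.

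Compared with WT fetuses, the week 70 brains had 3 of 6 further Slc2a genes higher and 1 lower, with Slc2a5 at 2.64 and Slc2a4 at -1.55, beside a background of 78.6% called. Slc2a9, one of the higher ones, was not called without week 70 replicate 2 (0.94, edgeR adjusted p 0.126). Of 12 further Slc16a genes 2 were higher and 5 lower, with Slc16a5 at 2.84 and Slc16a14 at -1.74. Slc5a3 stood at -1.53, Nptn at 3.05 and Emb at 1.12, all called in edgeR. Slc16a3 stood at -0.11 and was not called (edgeR adjusted p 0.749).

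Hexokinases trap the glucose that enters a cell, lactate dehydrogenases interconvert lactate and pyruvate, and the Mpc1 and Mpc2 subunits carry pyruvate into mitochondria. Of 8 such genes tested between the fetal genotypes 5 fell, 2 rose and 1 did not pass, with a median of -0.37. Hk2 fell most, at -1.76 (SE 0.194, edgeR adjusted p 1.89e-05), from 15.6, 12.7 and 12.2 CPM to 4.42, 4.50 and 2.66 CPM. Hk1, the main hexokinase of brain, went from 144, 154 and 173 CPM to 56.3, 45.6 and 44.9 CPM, a log2 fold change of -1.64 (SE 0.0962, edgeR adjusted p 1.94e-07) that was -0.76 with the length and GC correction. Ldha fell by 0.49 (edgeR adjusted p 0.000154) and Ldhb by 0.25 (adjusted p 0.00631) on the log2 scale, the latter not called with upper-quartile scaling (-0.08, adjusted p 0.297). The 2 genes that rose were the pyruvate carrier subunits, Mpc2 at 0.79 (edgeR adjusted p 1.23e-06) and Mpc1 at 0.78 (adjusted p 0.000162). The count of 7 called in 8 stands beside the background of 62.6%, and the list was not tested. Among those that fell, Hk3 (-0.77, edgeR adjusted p 0.0474) lost its call without any one of 5 libraries, WT replicate 1 among them (-0.47, adjusted p 0.221). With the length and GC correction it stood at -0.23 and was not called (edgeR adjusted p 0.524).

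With age 6 of 9 of these genes rose, 1 fell and 2 did not pass, with a median of 1.21. Over all genes 37.6% were called higher and 44.4% lower. Hkdc1 had the largest rise, at 5.24 (edgeR adjusted p 2.76e-07), on 5, 2 and 4 fetal against 151 and 115 adult counts. Hk1 rose to 414 and 464 CPM, that is by 3.06 on the log2 scale (edgeR adjusted p 2.01e-09), while Hk2 stayed at 3.89 and 5.38 CPM with 0.16, which was not called (adjusted p 0.625). Ldhb rose by 3.28 and Ldha by 1.91, and Mpc1 and Mpc2 by 1.21 and 1.09. Against WT fetuses 6 of 9 were higher and 2 lower at week 70, beside 36.7% higher and 41.9% lower over all genes. Hkdc1 stood at 3.52, Hk1 at 1.47 and Hk2 at -1.56. There Ldha stood at 1.46, Ldhb at 3.08, Mpc1 at 2.04 and Mpc2 at 1.92, all called higher in edgeR. Reads of Ldha, Pgk1 and other genes with near-identical pseudogenes may be split between copies, since the handling of such reads is not given in the sources used here.

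Txnip, the arrestin that removes GLUT1 from the cell surface, was lower in KO fetuses, at 26.0, 23.1 and 21.4 CPM against 69.5, 55.1 and 56.5 CPM. Its log2 fold change of -1.32 (SE 0.1, edgeR adjusted p 1.16e-06) was the largest fall among 12 trafficking genes. Of these, 8 fell and 4 rose, with a median of -0.35, where 62.6% of all genes were called. Arrdc4 (-0.21, edgeR adjusted p 0.0423) was not called without KO fetal replicate 2 or 3 or WT replicate 2 or 3, with values from -0.21 to -0.18. It was also not called with upper-quartile scaling (-0.04, adjusted p 0.692) or the length and GC correction (-0.17, 0.105). Aspscr1 was not called without KO fetal replicate 2 (-0.23, edgeR adjusted p 0.0756). Upper-quartile scaling (-0.10, adjusted p 0.333) and the length and GC correction (-0.01, 0.908) also ended its call. Vps26a, called higher at 0.34 (edgeR adjusted p 0.000473), was called lower with the length and GC correction (-0.19, adjusted p 0.0148). Vps29, a retromer subunit that returns membrane proteins to the surface, rose most at 1.02 (edgeR adjusted p 2.13e-07). With age 8 of the 12 rose and 2 fell, where 37.6% of all genes were called higher and 44.4% lower. Sort1 stood at 2.38, Arrdc4 at -2.21 and Txnip at 0.37 (edgeR adjusted p 0.0118). That call of Txnip was lost with upper-quartile scaling (0.12, adjusted p 0.324). Against WT fetuses 8 rose and 4 fell at week 70, beside 36.7% higher and 41.9% lower over all genes. Stxbp3 stood at 2.02, Arrdc4 at -2.37 and Txnip at -0.90. Gipc1 stood at 0.29 and was not called without any one WT library or week 70 replicate 1 (0.11 to 0.33). Txnip at week 70, at 31.4 and 33.9 CPM, thus remained below WT fetuses, whereas Slc2a1 was above them.

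Slc2a1 is a known target of the hypoxia-inducible factors, and 17 hypoxia-response genes were tested. Between the fetal genotypes 9 fell, 5 rose and 3 did not pass, with a median of -0.30, beside a background of 32.5% called lower and 30.1% called higher. P4ha1, one of those that fell (-0.46, edgeR adjusted p 0.0288), was not called without WT replicate 1 (-0.22, adjusted p 0.0545) or without any one KO fetal library (-0.50 to -0.44). Pdk1, one of those that rose, was not called without KO fetal replicate 2 or 3 or WT replicate 3 (0.17 to 0.25). Epas1, the factor HIF-2α that endothelium expresses, fell most, at -2.72 (SE 0.141, edgeR adjusted p 9.26e-08), from 45.7, 32.5 and 39.6 CPM to 6.66, 5.33 and 5.39 CPM. Ankrd37 rose most at 1.08 (edgeR adjusted p 0.00206). With age 10 rose and 5 fell, where 37.6% of all genes were called higher and 44.4% lower. The 17 had a median of 1.12, with Epas1 at 5.39 and Arnt at -1.39. Against WT fetuses 10 rose and 5 fell, where 36.7% were called higher and 41.9% lower, with Pgk1 at 5.91 and Kdm3a at -1.36. Epas1 had the same order of groups as Slc2a1, an order also seen in Hk1, Ldha and Sort1. It held 261 and 258 CPM at week 70, and a link between it and Slc2a1 was not tested.

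For each gene the 3 most similar among 12833 were sought by the root mean square difference of centred log2 CPM over the 8 libraries, as a description of these libraries. Nearest to Slc2a1 were Bsn (0.104), Foxo3 (0.104) and Prex1 (0.115). Near to Slc2a3 were Rtl8c (0.0613) and Snx25 (0.0696), and Slc2a13 was closest to Iqsec2 (0.0836), Laptm4b (0.0840) and Syt1 (0.0943). Syt1, a synaptic vesicle protein, is expressed in neurons. The genes nearest to Slc2a8 were Arfgap2 (0.0341), Crat (0.0585) and Tmco3 (0.0654). Slc16a1 was closest to Inpp5d (0.0622), Sil1 (0.0811) and Dazap2 (0.0834), Slc16a7 to Maoa (0.0616), Dctn6 (0.0655) and Actr10 (0.0755). Rab6a (0.0652) and Hdac11 (0.0845) were near to Bsg. No endothelial marker of the list was among the genes named here.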

How the data were processed

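Per the labels' protocols, messenger RNA was purified from total RNA on poly-T beads, and random hexamers primed the cDNA. What the authors deposited is a single table of raw counts per gene, with 8 columns of libraries per the file headers. The submitters' processing notes name FastQC, cutadapt, Trimmomatic, HISAT2, featureCounts and edgeR, and the builds GRCm38 and GRCm39, without saying which build served these counts; strand and multi-mapping settings are not given in the sources used here. Such settings could change counts of genes with antisense partners or pseudogenes.

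Groups followed the sample titles. Tests used edgeR 4.0.16 under R 4.3.3 (filterByExpr, TMM, two-sided quasi-likelihood F-test, Benjamini-Hochberg over all genes, 0.05), each pair of groups in its own fit. Of the 34299 genes, 351 had no symbol and were kept; 97.28% had a length and GC content in GENCODE release M 21 (GRCm38). For the corrected fit, mgcv 1.9.3 smoothed each library's trend on both, which then served as an offset. Values per kb used merged exon lengths. Alternatives were upper-quartile and RLE scaling, dropping the filter, a mean of at least 10 counts, 1 fit of all 8 libraries, DESeq2 1.42.0, haemoglobin and mitochondrially encoded genes removed, the replicate number as a block, and each library left out. The correction of marker ratios, and all alternatives for the Slc2a shares, were added after seeing the data. Scripts were tested on simulated data.

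The 7 genes and the lists were chosen with earlier results of these data known. Text names every one of the 7, the largest called rise and fall of each list, defining partners (Slc16a3, Emb, Slc2a4, Hk1, Hk2, Ldha, Ldhb, Mpc1, Mpc2 and Txnip), and the 3 most similar genes with a mean of at least 50 counts, on log2(CPM + 0.5). A few genes that this rule or the lists hold are not reported here. Other genes named were chosen after their values were seen.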

Additional observations from a re-analysis of the deposited data

How the results depend on the processing

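Of 322 values of the 7 genes' log2 fold changes under alternatives, 304 kept their direction and their side of the threshold. The 18 others fell in 6 of 21 results. Between the fetal genotypes, Bsg reversed to 0.11 with upper-quartile scaling, 0.18 with the length and GC correction with or without the replicate block, and 0.024 without KO replicate 3. Slc2a8 reversed to 0.42 with that correction, with or without the block, and passed the threshold at -0.34 with no low-count filter (adjusted p 0.036). Slc2a3 lost its call with upper-quartile scaling (-0.20) and with the correction (-0.11). Between the ages, Slc16a7 reversed to -0.10 with upper-quartile scaling, and Slc2a8 to -0.15 with the correction and -0.18 with the block added. Removing each library's trends on length and GC is what the correction does, and the cause of those trends was not tested. The number of the 7 genes called ran from 4 to 6, 6 to 7 and 6 to 7 in the 3 comparisons, and the number of all genes called stayed within 1.5 times. Of 154 alternative values of ratios and shares, 47 moved by at least the spread between libraries. Slc16a7 between the ages passed the threshold at 0.25 with all 8 libraries in one fit and at 1.48 with the correction, and Slc2a8 lost its call at week 70 against WT fetuses at 0.25 with it. Counts called in the other lists moved by over 1.5 times in 29 alternatives, against 753 that did not. Among them, the sodium-coupled transporters went from 1 to 0 between the fetal genotypes, and the chaperones from 1 to 2 there and from 2 to 1 between the ages. The trafficking genes went from 12 to 7 with the block and the correction together.

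Whether replicate numbers pair the fetal samples was not settled. Deviations of same-numbered fetal libraries from their group means correlated at -0.16, -0.19 and -0.17, and those of different-numbered ones at 0.07 to 0.10. Such deviations cancel within a group, so these correlations depend on each other. With the replicate block, 5, 6 and 7 of the 7 genes were called, as without it, among 11184, 14876 and 13244 of all genes, and Slc2a1 stood at -2.00 between the fetal genotypes. With the block the age calls of Emb (0.29, adjusted p 0.12), Slc2a2 (-2.29, 0.138), Slc2a4 (-0.73, 0.162), Slc16a3 (0.78, 0.0832), Txnip (0.32, 0.0591) and Adm (1.31, 0.116) were not made, nor those of Hk3 (-0.74, 0.062) and Arrdc4 (-0.21, 0.0745) between the fetal genotypes, nor those of Adm, Ddit4, Gipc1 and Slc2a9 at week 70 against WT fetuses. Leaving out single libraries also ended calls of Adm between the ages (week 70 replicate 1, adjusted p 0.0509, or KO fetal replicate 2, adjusted p 0.0619) and, against WT fetuses, of P4ha1 (either week 70 library, 0.67 to 0.70) and Ddit4 (week 70 replicate 2 or WT replicate 2 or 3, -0.39 to -0.23). With 3 and 2 libraries a group, exact tests of a single value cannot pass 0.05. Totals of 14110031 to 20833397 counts limit genes of few counts, such as Slc2a2 and Slc16a5.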
